A study of Mus musculus with 18 samples.

Results

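The genes described are the parts of the NLRP3 inflammasome and its close partners: Nlrp3, Nek7, Pycard, Casp1, Il18, Gsdmd, Txnip, Casp8 and Il1r1. They were taken by gene symbol, and all 9 were listed among 20257 genes in striatum and among 20897 in substantia nigra. All 9 passed the filter on low counts in both tissues, by which 19115 and 19686 genes were tested. RNA sequencing covered wild-type C57BL6 mice 3 weeks after a striatal injection. PBS mice received phosphate-buffered saline in the striatum and intraperitoneally, 6-OHDA mice received 4 µg of 6-hydroxydopamine in the striatum with intraperitoneal PBS, and TUG469 mice received the same toxin with intraperitoneal TUG469 at 10 mg/kg per day. TUG469 activates GPR40, a cell surface receptor for long-chain fatty acids encoded by Ffar1, and the study's title names the NLRP3 inflammasome as the pathway it asked about. Each group had 3 libraries per tissue, 18 in all. The labels do not say whether the libraries come from separate animals, so p-values measure the spread between these libraries. The labels state neither sex nor age.

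The NLRP3 inflammasome is a cytosolic complex of innate immune cells, and in the brain it is best known from microglia. A priming signal, often through NF-kB, raises transcripts of the complex, and a second signal makes NLRP3, helped by the kinase NEK7, gather the adaptor ASC (gene Pycard) and the protease caspase-1. Caspase-1 then cuts pro-IL-1β, pro-IL-18 and the pore-forming protein gasdermin D. Assembly and cutting are protein events, and transcript levels do not measure them.

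The sensor, the adaptor and the protease form the core of the complex, and the 250 bases before the annotated start of each gene are shown because a priming signal would act on transcription. They are RefSeq sequences on GRCm38.p6, each read 5′ to 3′ on the strand of its gene, at chr11:59541319-59541568 (plus strand) for the outermost Nlrp3 start, chr7:127993868-127994117 (minus strand) for Pycard and chr9:5298267-5298516 (plus strand) for Casp1. Capitals mark every match on either strand to the patterns described in the next paragraph, in their first form.
Nlrp3: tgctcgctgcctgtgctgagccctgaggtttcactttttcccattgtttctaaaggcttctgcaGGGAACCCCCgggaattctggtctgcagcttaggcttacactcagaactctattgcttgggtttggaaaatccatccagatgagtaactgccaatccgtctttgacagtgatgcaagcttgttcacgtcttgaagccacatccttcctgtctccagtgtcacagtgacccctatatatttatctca
Pycard: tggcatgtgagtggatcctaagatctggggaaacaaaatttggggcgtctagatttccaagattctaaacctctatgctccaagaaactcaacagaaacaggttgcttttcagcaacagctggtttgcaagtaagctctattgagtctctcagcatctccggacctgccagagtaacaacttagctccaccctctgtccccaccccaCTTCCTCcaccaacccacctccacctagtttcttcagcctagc
Casp1: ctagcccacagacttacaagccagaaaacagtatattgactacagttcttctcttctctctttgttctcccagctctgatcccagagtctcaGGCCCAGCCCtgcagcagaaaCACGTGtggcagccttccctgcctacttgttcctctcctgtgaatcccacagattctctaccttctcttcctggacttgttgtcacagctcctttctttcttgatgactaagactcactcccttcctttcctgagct

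Of the 9 genes, 8 had a promoter entry, which gave 10 windows since Nlrp3 and Il1r1 had 2 starts each. The core motif of the myeloid factor PU.1, GAGGAAG, was found in 2 of 10 windows, against 10.6% of 32851 promoter windows of the same length. In Pycard it began 43 bases before the start, on the opposite strand, and the other window was at the inner start of Nlrp3. The E-box CACGTG was found in 1 of 10 windows, that of Casp1, against 6.02% of all, and the TATA box letters TATAAA in 1 of 10, that of Il18, against 12.4%. An NF-kB half-site pattern (GGG and CC with 5 bases of any kind between them) was in 5 of 10 windows and in 45.8% of all, and an interferon-stimulated response element pattern (GAAA, 2 bases of any kind, GAAA) in 0 of 10 and 2.98%. A second form of these last patterns was tried after the first counts were seen: GGGNNTTCC was in 3 of 10 windows and 4.98% of all, and GAAANNGAA in 0 of 10 and 7.13%. The share for the NF-kB pattern therefore turns on the form chosen. Overlapping matches were counted once per window, and a match describes letters only.

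Depth was 42242389 to 61992226 counts per library in striatum and 51665747 to 61933756 in nigra. Tissue labels were met by the markers: 9 striatal projection neuron genes summed to 5952 to 9563 TPM (a transcript level scaled by gene length and depth) in striatal libraries and to 234 to 377 TPM in nigral ones. The lesion labels were not met in the same way. Slc6a3, the dopamine transporter, was at 57.5 ± 11.1 CPM (counts scaled to library size, mean ± SD, n = 3) in nigral libraries labelled PBS, 54.6 ± 11.2 in those labelled 6-OHDA and 13.6 ± 2.76 in those labelled TUG469. Th, which makes the dopamine precursor, was at 33.1 ± 6.85, 51.4 ± 9.51 and 17.1 ± 4.16 CPM in the same order. The transcripts that dopamine neuron loss lowers were thus low in the libraries labelled TUG469 and not in those labelled 6-OHDA, and every direction below is between libraries as labelled.

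No gene of the set passed the adjusted threshold in any of the 6 comparisons of groups within a tissue (edgeR quasi-likelihood test, Benjamini-Hochberg adjusted p under 0.05 over all genes). In striatum, 0 of 9 genes passed in 6-OHDA against PBS (background 0% of genes), 0 of 9 in TUG469 against 6-OHDA (0.00523%) and 0 of 9 in TUG469 against PBS (0%). In nigra, 0 of 9 passed in 6-OHDA against PBS (0.00508%), 0 of 9 in TUG469 against 6-OHDA (0.00508%) and 0 of 9 in TUG469 against PBS (1.85%). With so few calls over all genes in the first 5 comparisons, a count of 0 among 9 genes is what the background itself gives.

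At an unadjusted p under 0.05, 1 of 9 genes stood out in striatum for 6-OHDA against PBS (7.50% of all genes), 0 of 9 for TUG469 against 6-OHDA (7.49%) and 1 of 9 for TUG469 against PBS (12.5%). In nigra the counts were 1 of 9 (14.3%), 1 of 9 (8.20%) and 2 of 9 (19.7%) in the same order. Groups did not overlap in CPM for 1, 0 and 1 of 9 genes in striatum, against 11.8%, 14.9% and 18.5% of all genes. In nigra they did not overlap for 3, 3 and 1 of 9 genes, against 20.0%, 14.4% and 24.0%. These shares are near the background or rest on 3 genes at most.

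**Figure D1:**
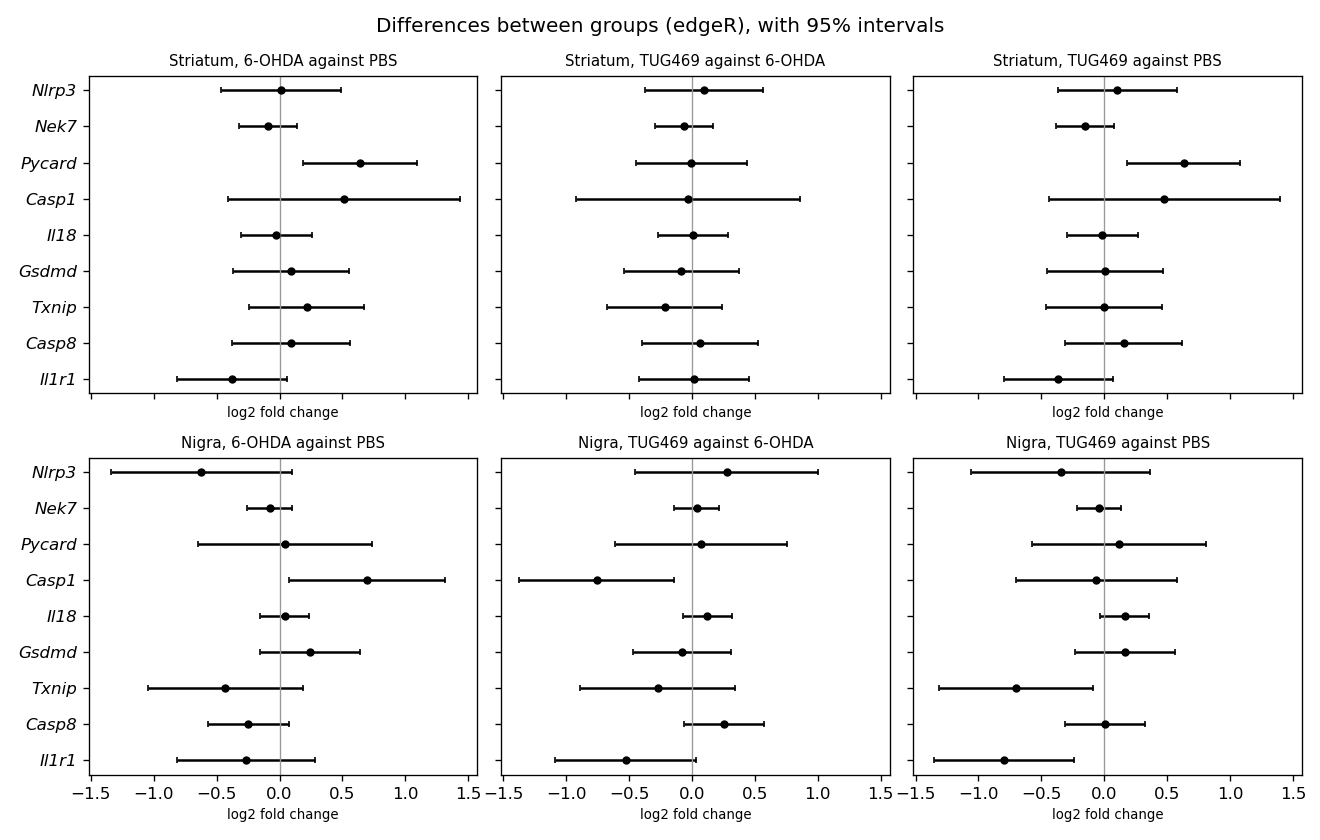
Log2 fold change of each gene (point) with its 95% interval (bar) from edgeR in the 6 comparisons, 3 libraries per group. Most intervals cross 0; those of Pycard in 2 striatal comparisons, of Casp1 in 2 nigral ones, and of Txnip and Il1r1 in nigra for TUG469 against PBS do not, and none of these passed the adjusted threshold.

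The smallest change that could be seen differed between genes. For 6-OHDA against PBS an unadjusted p of 0.05 needed a fold of 1.17 (Nek7) to 1.90 (Casp1) in striatum and of 1.13 (Nek7) to 1.65 (Nlrp3) in nigra. The adjusted threshold needed 1.98 to 15.3 fold in striatum and 1.63 to 7.16 fold in nigra for the same comparison. In nigra, TUG469 against PBS had more calls over all genes and needed 1.29 to 2.78 fold. At the number of calls seen over all genes, an estimated change of the sensor below about 4.08 fold in striatum would therefore not have passed after 6-OHDA.

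**Figure D2:**
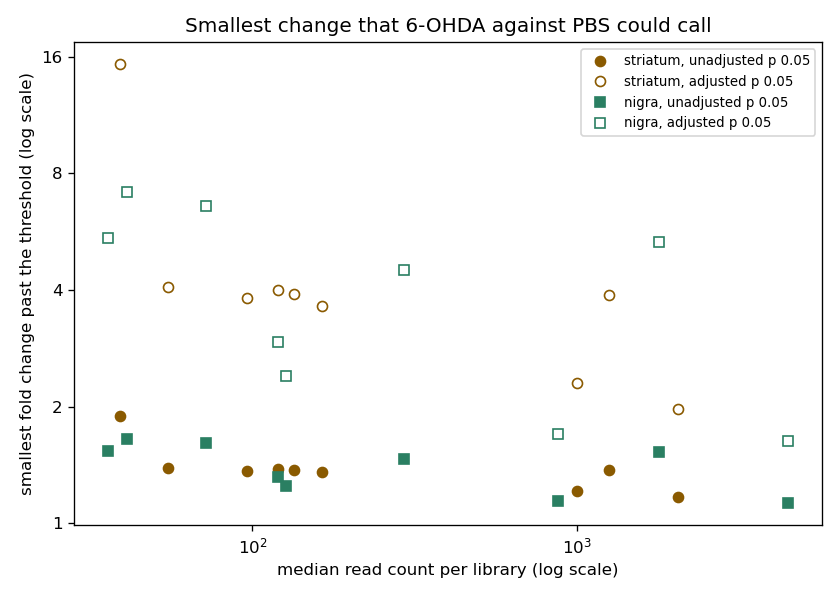
Smallest fold change (y axis, log scale) that 6-OHDA against PBS could call for each of the 9 genes, against the gene's median read count per library (x axis, log scale). Filled symbols are the unadjusted and open symbols the adjusted threshold; Casp1 in striatum, at 15.3 fold, is the highest.

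Nlrp3, the sensor that gives the complex its name, had the lowest level of the set per length in both tissues. In striatum it was at 0.627, 0.470 and 0.509 TPM in PBS libraries 1 to 3, at 0.628, 0.630 and 0.454 TPM in 6-OHDA libraries 2 to 4, and at 0.640, 0.601 and 0.598 TPM in TUG469 libraries 1, 2 and 4. All striatal groups overlapped. These values rest on 34 to 66 reads per library. For 6-OHDA against PBS the log2 fold change was 0.01 (SE 0.21, edgeR adjusted p = 0.996), with an interval from -0.47 to 0.49, and that for TUG469 against 6-OHDA was 0.09 (SE 0.21, adjusted p = 0.944).

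In nigra Nlrp3 was at 0.534, 0.506 and 0.604 TPM in PBS libraries, 0.403, 0.407 and 0.223 TPM in 6-OHDA libraries, and 0.275, 0.613 and 0.363 TPM in TUG469 libraries. All 3 of the 6-OHDA libraries lay below all 3 of PBS, while the TUG469 libraries spread across both. For 6-OHDA against PBS the log2 fold change was -0.62 (SE 0.32, edgeR unadjusted p = 0.0826, adjusted p = 0.401), with an interval from -1.34 to 0.10. Over all 19686 genes the log2 fold change of this comparison fell with gene length (Spearman -0.33 across genes, which are not independent replicates), and the FPKM values give Nlrp3 a length of 4595 bases. With that trend removed the value was -0.59 (adjusted p = 0.568). For TUG469 against 6-OHDA it was 0.28 (SE 0.33, adjusted p = 0.867), and without TUG469 library 2, which at 0.613 TPM is the highest of the nigral libraries, it was -0.08.

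Nek7 encodes the kinase that binds NLRP3 during activation, and it was the most precisely measured of the set, with 1647 to 2364 reads per library in striatum and 3602 to 4884 in nigra. Striatal libraries lay between 18.4 and 24.4 TPM and nigral ones between 40.8 and 53.9 TPM. Within both tissues the groups overlapped. The 95% intervals of its fold ran from 0.801 to 1.10 for 6-OHDA against PBS in striatum and from 0.836 to 1.07 in nigra, so changes beyond these bounds are outside the interval. By gene span Nek7 overlaps Gm28501 on the opposite strand, and no source used here says how strand was counted. Whether reads of Gm28501 were counted for Nek7 was not tested.

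Pycard encodes ASC, the adaptor that links the sensor to caspase-1. In striatum it was at 1.59, 1.12 and 1.31 TPM in PBS libraries, 2.57, 2.10 and 1.90 TPM in 6-OHDA libraries, and 2.02, 2.48 and 2.11 TPM in TUG469 libraries. Every 6-OHDA and TUG469 library lay above every PBS library, and the 6-OHDA and TUG469 libraries overlapped. Its log2 fold change was 0.64 for 6-OHDA against PBS (SE 0.20, interval 0.19 to 1.09, edgeR unadjusted p = 0.0105, adjusted p = 0.475) and 0.63 for TUG469 against PBS (SE 0.20, unadjusted p = 0.0108, adjusted p = 0.283). Both share the 3 PBS libraries, so they are not separate evidence. Summed levels of 10 ependymal cell markers ran the same way in striatum, at 18.4 to 37.1 TPM in PBS, 67.6 to 78.7 TPM in 6-OHDA and 41.8 to 75.9 TPM in TUG469 libraries. For 6-OHDA against PBS 10 of 10 were higher, with a median log2 fold change of 1.71 and 0 called. The 4 choroid plexus markers listed summed to 3248 TPM in 6-OHDA library 2, which had the highest Pycard level, and to 13.2 to 292 TPM in the other striatal libraries. Without that library the Pycard log2 fold change for 6-OHDA against PBS was 0.51 (edgeR adjusted p = 0.963). The part of these cells in the Pycard values was not tested. Pycard likewise overlaps Gm45205 on the opposite strand. Between TUG469 and 6-OHDA the Pycard log2 fold change was -0.01 (SE 0.20, adjusted p = 0.998).

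In nigra Pycard was at 1.22, 1.04 and 2.16 TPM in PBS libraries, 1.44, 1.88 and 1.10 in 6-OHDA libraries and 1.83, 1.38 and 1.43 in TUG469 libraries. PBS library 3 was the highest of the 9, and all groups overlapped. Its log2 fold change for 6-OHDA against PBS was 0.04 (SE 0.31, adjusted p = 0.959). The difference between the tissues in this response was -0.60 (SE 0.38, edgeR interaction, adjusted p = 0.565; 0 of 9 genes called, 0.155% of all genes). For the TUG469 response against 6-OHDA, 0 of 9 genes differed between tissues (0% of all genes).

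Casp1 encodes caspase-1, and with 16 to 62 reads per library it rested on the fewest reads of the set in single libraries. In nigra it was at 0.641, 1.09 and 1.05 TPM in PBS libraries, 1.21, 1.51 and 1.67 TPM in 6-OHDA libraries, and 1.05, 0.853 and 0.664 TPM in TUG469 libraries. All 6-OHDA libraries lay above all PBS and all TUG469 libraries. Its log2 fold change was 0.69 for 6-OHDA against PBS (SE 0.28, interval 0.07 to 1.31, edgeR unadjusted p = 0.0316, adjusted p = 0.312) and -0.76 for TUG469 against 6-OHDA (SE 0.28, interval -1.38 to -0.14, unadjusted p = 0.0208, adjusted p = 0.557). The 2 comparisons share the 6-OHDA libraries, so they are not separate evidence. The length trend of 6-OHDA against PBS (Spearman -0.33 across genes) applies here too, and the FPKM values give Casp1 a length of 1738 bases. Over the alternative settings with all libraries, its log2 fold change ran from 0.36 to 0.72 for 6-OHDA against PBS. For TUG469 against 6-OHDA it ran from -0.77 to -0.41.

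In striatum Casp1 was at 0.467, 0.970 and 1.15 TPM in PBS libraries, 1.60, 1.60 and 0.688 TPM in 6-OHDA libraries, and 1.54, 1.28 and 0.971 TPM in TUG469 libraries. All 3 groups overlapped, and PBS library 1 was the lowest with 16 reads. The log2 fold change for 6-OHDA against PBS was 0.51 (SE 0.41, adjusted p = 0.846) and for TUG469 against 6-OHDA -0.03 (SE 0.40, adjusted p = 0.993). The difference between tissues in the TUG469 response was -0.73 (SE 0.50, adjusted p = 1.00).

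Il18 encodes the precursor of the cytokine that caspase-1 cuts, and it had the highest level of the set per length in striatum. Striatal libraries lay between 33.1 and 43.9 TPM and nigral ones between 30.8 and 38.2 TPM. The fold for 6-OHDA against PBS was 0.982 in striatum (interval 0.808 to 1.19) and 1.03 in nigra (interval 0.899 to 1.18). In nigra each TUG469 library lay above each PBS library in CPM, though not in TPM, with a log2 fold change of 0.16 (SE 0.09, edgeR unadjusted p = 0.0928, adjusted p = 0.333). By gene span Il18 overlaps Bco2 and Tex12 on the opposite strand, and no source used here states how strand was counted. Bco2 had counts of its own, 83 to 299 reads per library against 743 to 1188 for Il18. Whether reads of Bco2 or Tex12 were counted for Il18 was not tested. Il1b, the other cytokine the protease cuts, was not analysed here, because the tables list only genes with at least 1 count in all 9 libraries of a tissue. Ffar1, the receptor of TUG469, was not analysed here for the same reason.

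Gsdmd encodes gasdermin D, whose cut fragment forms membrane pores. Striatal libraries lay between 2.83 and 4.63 TPM, with 6-OHDA library 2 the highest, and nigral ones between 2.38 and 3.55 TPM. The log2 fold change for 6-OHDA against PBS was 0.09 in striatum (SE 0.21, adjusted p = 0.961) and 0.24 in nigra (SE 0.18, adjusted p = 0.547). Groups overlapped in both tissues.

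Casp8, an initiator caspase of the extrinsic death pathway that can also act in inflammasomes, was at 2.13, 2.38 and 2.25 TPM in nigral PBS libraries, 1.93, 1.80 and 1.69 in 6-OHDA libraries and 2.27, 2.03 and 2.23 in TUG469 libraries. The 6-OHDA libraries were the lowest 3 of the 9. Its log2 fold change was -0.25 for 6-OHDA against PBS (SE 0.14, unadjusted p = 0.116, adjusted p = 0.449) and 0.26 for TUG469 against 6-OHDA (SE 0.14, adjusted p = 0.714). In striatum the groups overlapped, at 1.59 to 2.79 TPM over all libraries.

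**Figure D3:**
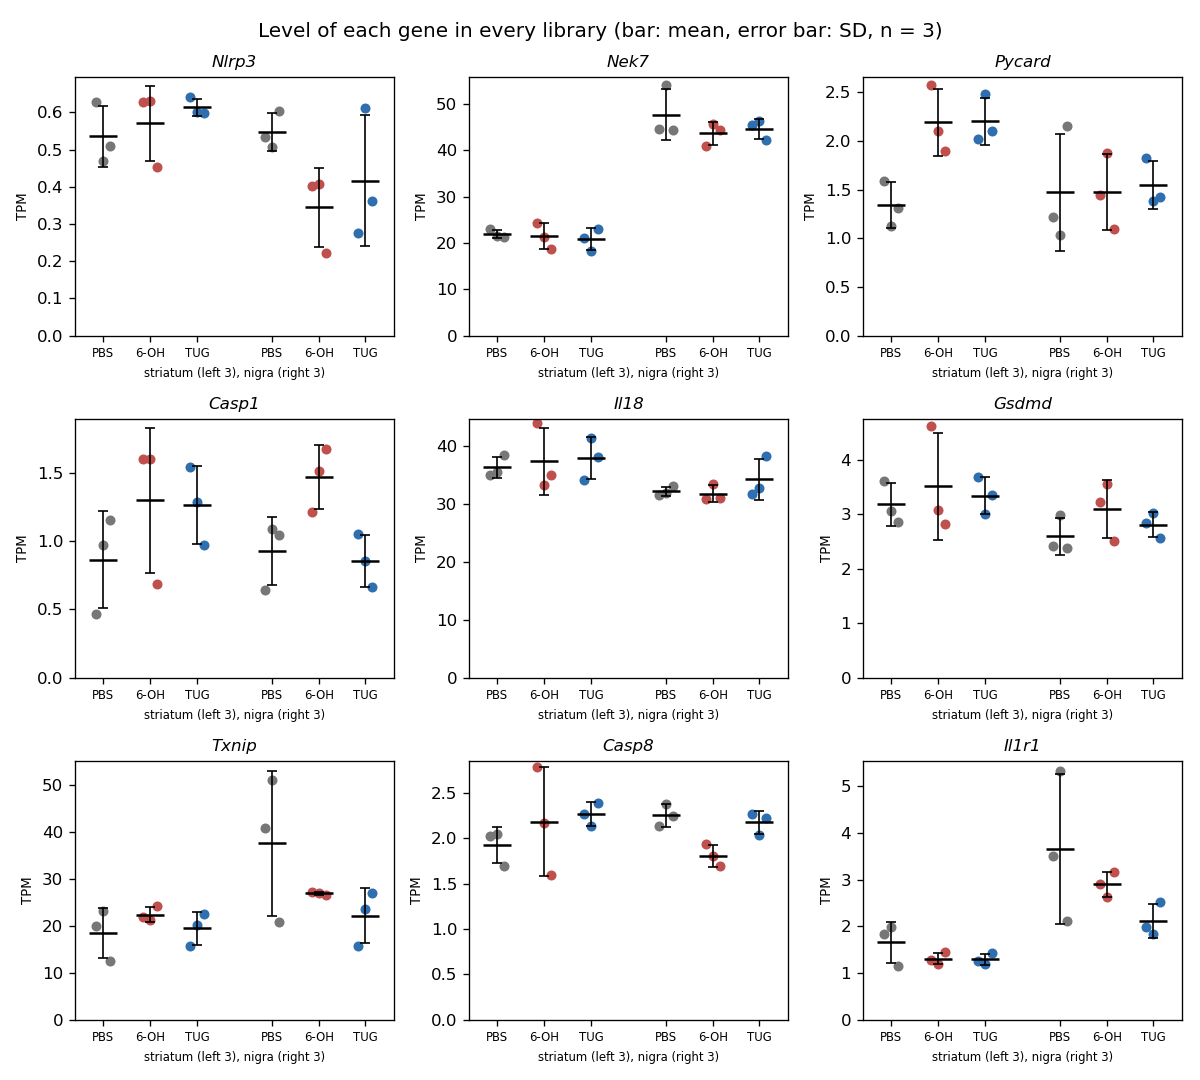
TPM of each gene (y axis, from 0) in every library by group, 3 libraries per group and tissue, with the mean (bar) and SD (error bar). Striatal Pycard is lower in PBS (1.12 to 1.59 TPM) than in the other groups (1.90 to 2.57 TPM), and nigral Casp1 is highest in 6-OHDA (1.21 to 1.67 TPM).

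Txnip encodes thioredoxin-interacting protein, which can bind NLRP3 and is also a target of glucose and stress hormone signals. In nigra it was at 40.9, 51.2 and 20.8 TPM in PBS libraries, 27.2, 27.1 and 26.5 TPM in 6-OHDA libraries and 15.7, 23.6 and 27.1 TPM in TUG469 libraries. PBS libraries 1 and 2 stood above the other 7, and PBS library 3 lay among the TUG469 libraries. The log2 fold change for TUG469 against PBS was -0.70 (SE 0.28, interval -1.32 to -0.09, edgeR unadjusted p = 0.0293, adjusted p = 0.199). In striatum it was at 12.6 to 24.2 TPM with overlapping groups. By gene span Txnip overlaps Gm15441 on the opposite strand, and whether reads of Gm15441 were counted for Txnip was not tested.

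Il1r1 encodes the receptor for IL-1, which in brain is strongest on endothelial cells. In nigra it was at 3.51, 5.33 and 2.11 TPM in PBS libraries, 2.90, 2.63 and 3.17 TPM in 6-OHDA libraries and 1.98, 1.83 and 2.53 TPM in TUG469 libraries. PBS library 2 was the highest, PBS library 3 lay within the TUG469 range, and all TUG469 libraries lay below all 6-OHDA libraries. In nigra 12 endothelial and mural cell markers summed to 480, 624 and 459 TPM in PBS, 476 to 514 TPM in 6-OHDA and 459 to 485 TPM in TUG469 libraries. For TUG469 against PBS 7 of them were higher and 5 lower, with a median log2 fold change of 0.15 and 0 called. Their part in the Il1r1 values was not tested. The log2 fold change for TUG469 against PBS was -0.80 (SE 0.25, interval -1.35 to -0.24, edgeR unadjusted p = 0.00984, adjusted p = 0.121), and for TUG469 against 6-OHDA -0.53 (SE 0.25, unadjusted p = 0.0611, adjusted p = 0.631). The log2 fold change of TUG469 against PBS also fell with gene length (Spearman -0.34 across genes), and the FPKM values give Il1r1 a length of 5749 bases. With that trend removed the value was -0.72 (edgeR adjusted p = 0.230). Of the set, only Il1r1 passed an adjusted p of 0.05 in the authors' deposited table, for TUG469 against PBS in nigra. It had a signed fold change of -1.73 and an adjusted p of 0.0192. That table gave no adjusted p for Nlrp3 and Casp1 in this comparison (2 of 9 genes missing). For 6-OHDA against PBS in nigra it gave none for 5 of 9 genes: Nlrp3, Pycard, Casp1, Gsdmd and Casp8.

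In nigra 11 glucocorticoid response genes had a summed level of 1401, 1615 and 796 TPM in PBS libraries. It was 924, 1090 and 1380 TPM in 6-OHDA libraries and 603, 718 and 884 TPM in TUG469 libraries. The order of the PBS libraries was that of Txnip and Il1r1. Over the TUG469 libraries Txnip had the order of the list (15.7, 23.6 and 27.1 TPM), and Il1r1 was at 1.98, 1.83 and 2.53 TPM. Over the 6-OHDA libraries Txnip was at 27.2, 27.1 and 26.5 TPM and Il1r1 at 2.90, 2.63 and 3.17 TPM. All 11 were lower in TUG469 than in PBS, 3 of them past the adjusted threshold (1.85% of all genes passed), with a median log2 fold change of -1.12 (median of all genes 0.01). In striatum all 11 were also lower in TUG469 than in PBS (median -1.05), with 0 called (0% of all genes). There the log2 fold change was -0.001 for Txnip (edgeR adjusted p = 0.999) and -0.37 for Il1r1 (adjusted p = 0.477). Striatal Txnip was at 19.9, 23.1 and 12.6 TPM in PBS libraries, where the list summed to 1186, 1271 and 671 TPM. In striatal TUG469 libraries Txnip was at 15.7, 20.2 and 22.6 TPM and the list at 579, 687 and 794 TPM. In striatal 6-OHDA libraries Txnip was at 21.8, 21.2 and 24.2 TPM and the list at 784, 867 and 1030 TPM. The part of the 11 genes in the Txnip and Il1r1 values was not tested. In nigra without PBS library 3, the log2 fold change for TUG469 against PBS was -0.99 for Txnip (edgeR adjusted p = 0.0327) and -1.03 for Il1r1 (adjusted p = 0.0366). Without PBS library 2 they were -0.43 (adjusted p = 0.412) and -0.44 (adjusted p = 0.244).

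**Figure D4:**
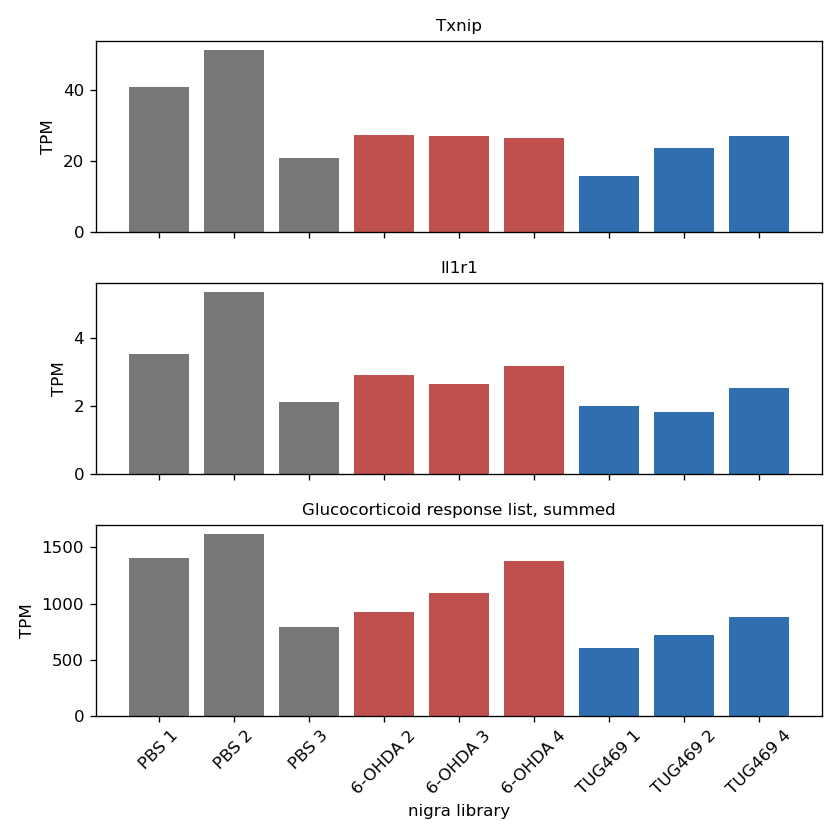
TPM of Txnip, Il1r1 and the summed glucocorticoid response list (11 genes) in each of the 9 nigral libraries, bars from 0. PBS libraries 1 and 2 are the highest for Txnip and Il1r1, and PBS library 3 is close to the TUG469 libraries in all 3 panels.

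Between tissues, 7 of 9 genes passed the adjusted threshold, against 71.5% of all genes, so the share is near the background. Nek7 and Il1r1 were higher in nigra, with log2 fold changes of 0.87 (SE 0.06, edgeR adjusted p = 5.56e-10) and 0.69 (SE 0.14, adjusted p = 0.000269). Nlrp3 (-0.63, SE 0.15, adjusted p = 0.00139), Pycard (-0.52, SE 0.15, adjusted p = 0.00609), Gsdmd (-0.42, SE 0.11, adjusted p = 0.00246), Il18 (-0.39, SE 0.06, adjusted p = 3.68e-05) and Casp8 (-0.25, SE 0.10, adjusted p = 0.0304) were lower. Casp1 (-0.29, interval -0.73 to 0.14) and Txnip (0.28, interval -0.05 to 0.61) did not pass. These values average the 3 groups of each tissue. In PBS libraries alone, mean TPM in striatum and nigra was 0.536 and 0.548 for Nlrp3, 1.34 and 1.47 for Pycard and 1.92 and 2.25 for Casp8. It was 3.18 and 2.60 for Gsdmd and 36.2 and 32.1 for Il18. Of the genes called lower, only Gsdmd and Il18 thus had a lower mean TPM in nigral PBS libraries. The Casp8 call was lost without any 1 of 6 libraries: striatum PBS 2, 6-OHDA 2 (adjusted p = 0.0716) or TUG469 4, or nigra PBS 1, 6-OHDA 4 or TUG469 2. Txnip passed without nigra PBS library 3 (0.37, edgeR adjusted p = 0.0143). All 18 of 18 microglia marker genes were also lower in nigra, with a median of -0.91, and they summed to 645 to 964 TPM in striatal and 478 to 584 TPM in nigral libraries. Among 12 endothelial and mural cell markers 11 were higher in nigra, as Il1r1 was, with a median of 0.32. Of these markers 9 were called higher and 1 lower. The part of either list in the member values was not tested. In bulk tissue fewer cells of a type and less RNA per cell cannot be told apart. The tissues were counted in separate tables and fitted together here on raw counts.

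**Figure D5:**
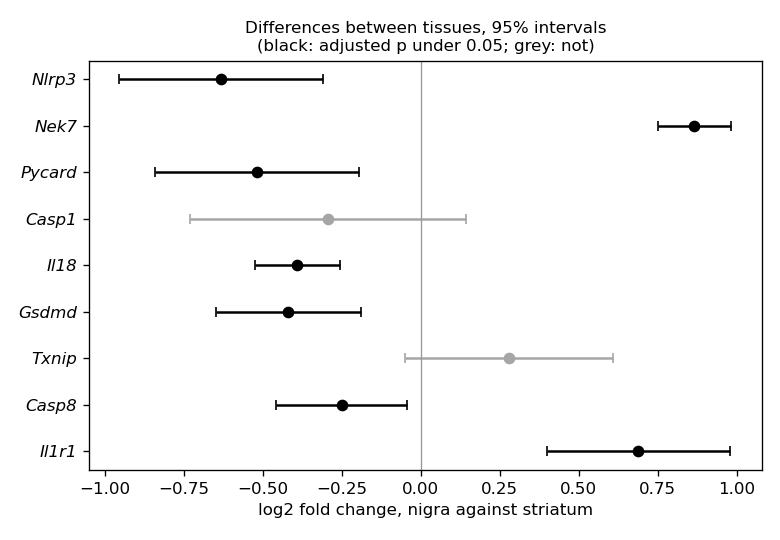
Log2 fold change of each gene in nigra against striatum (point) with its 95% interval (bar), averaged over the 3 groups, 18 libraries. Nek7 (0.87) and Il1r1 (0.69) lie to the right of 0, and the 5 genes called lower lie between -0.63 and -0.25.

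By level per length, the order in striatum was Il18 (37.1 TPM, mean of 9 libraries), Nek7 (21.4), Txnip (20.1), Gsdmd (3.35), Casp8 (2.13), Pycard (1.91), Il1r1 (1.42), Casp1 (1.14) and Nlrp3 (0.573). In nigra it was Nek7 (45.3), Il18 (32.7), Txnip (28.9), Il1r1 (2.89), Gsdmd (2.83), Casp8 (2.08), Pycard (1.5), Casp1 (1.08) and Nlrp3 (0.436). The place of Il1r1 in nigra turns on the group: it was above Gsdmd in PBS (3.65 ± 1.61 against 2.60 ± 0.340 TPM, SD, n = 3) and below it in 6-OHDA (2.90 against 3.10 TPM) and TUG469 (2.11 against 2.81 TPM). The sensor, adaptor and protease were the lowest 3 in nigra. In striatum the libraries of Il18 and Nek7, of Txnip and Gsdmd, and of Gsdmd and Casp8 did not overlap, and every other pair of neighbours in the order did. In nigra the pairs without overlap were Nek7 and Il18, Txnip and Il1r1, Gsdmd and Casp8, and Casp1 and Nlrp3.

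In the wider pathway, 5 lists of genes were counted. Il33, an alarmin of the IL-1 family made by glia, and Lrrc8a, a subunit of the volume-regulated anion channel that can feed NLRP3 activation, were the only listed genes past the adjusted threshold within a tissue, both in nigra for TUG469 against PBS. Il33 was at 70.8, 74.1 and 81.9 TPM in PBS libraries and 107, 91.7 and 99.8 TPM in TUG469 libraries, and rose by a log2 fold change of 0.45 (SE 0.09, edgeR adjusted p = 0.0462). Lrrc8a was at 57.1, 57.2 and 48.4 TPM in PBS libraries and 41.6, 40.9 and 37.1 TPM in TUG469 libraries, and fell, with a log2 fold change of -0.39 (SE 0.08, adjusted p = 0.0471). Neither pair of groups overlapped in TPM, but both genes were named by a test on the same libraries. In CPM the groups of 24.0% of all genes did not overlap in this comparison. Both calls sit close to the threshold: Il33 was past it in 9 of 20 alternative analyses and Lrrc8a in 7 of 20. With each of the 9 nigral libraries left out in turn, Il33 passed only without PBS 3 or 6-OHDA 4 and Lrrc8a only without PBS 3, with adjusted p up to 0.194 and 0.195 and log2 fold changes of 0.39 to 0.52 and -0.45 to -0.34.

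For TUG469 against PBS in nigra, 1 of 7 IL-1 family genes tested was called higher and 1 of 20 regulators of NLRP3 activation was called lower, where 1.85% of all genes were called in either direction. In the same comparison 0 of 11 other inflammasome sensors, 0 of 22 genes of NF-kB priming and 0 of 15 cell death genes passed. In the other 5 comparisons within a tissue no listed gene passed. Among those with an unadjusted p under 0.05 were Casp12, a caspase of the endoplasmic reticulum, at 0.77 for 6-OHDA against PBS in nigra (SE 0.21, edgeR adjusted p = 0.203), and P2rx7, the ATP-gated channel that can trigger NLRP3, at 0.34 (SE 0.14, adjusted p = 0.325). In striatum Mlkl, the executor of necroptosis, was at -1.49 for TUG469 against 6-OHDA (SE 0.36, adjusted p = 0.492), and Gbp5, an interferon-induced GTPase that can promote NLRP3 assembly, at 0.60 (SE 0.17, adjusted p = 0.572). None of these 4 passed.

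No microglia marker passed the test within striatum, where 18 of 18 were higher in TUG469 than in 6-OHDA, with a median log2 fold change of 0.26. Their summed level was 645 to 847 TPM in PBS, 712 to 890 TPM in 6-OHDA and 846 to 964 TPM in TUG469 libraries. Interferon response genes were higher in 17 of 17 for the same comparison, with a median of 0.80 and 0 called (0.00523% of all genes). They summed to 52.6 to 66.8 TPM in PBS and 55.1 to 74.9 TPM in 6-OHDA libraries. In TUG469 libraries 1, 2 and 4 they summed to 83.8, 137 and 95.6 TPM, so library 2 stood apart. Pycard, whose 6-OHDA and TUG469 libraries lay above those of PBS, had a fold of 0.996 between TUG469 and 6-OHDA. Of 14 blood and border myeloid markers, 5 were listed in striatum and 9 in nigra, at sums of 3.64 to 7.25 and 12.7 to 23.1 TPM.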

How the data were processed

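RNA was measured in striatum and substantia nigra, with 9 libraries per tissue. Per the labels' protocols, libraries were made with a stranded mRNA kit. The submitters' processing notes name GRCm38 and the tools STAR 2.7.3a, Cufflinks, Trim Galore 0.38 and FastQC 0.11.7, with no order. No source used here states how strand was counted. For each library the authors deposited, per the file headers, read counts, TPM and FPKM values per gene. The authors also deposited, per comparison, a signed linear fold change (a score with no fixed range), a p-value and an adjusted p-value. The tables list only genes with at least 1 count in all 9 libraries.

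Counts were fitted with edgeR 4.0.16 in R 4.3.3 (filterByExpr with minimum count 10 and total 15, TMM factors, quasi-likelihood F test), over the 9 libraries of a tissue, or over all 18 for the comparison of tissues (18749 genes). P-values were Benjamini-Hochberg adjusted over all genes tested, with a threshold of 0.05. Intervals are 95% and use the fit's t distribution. FPKM gave gene lengths for the length trend alternative. The smallest change seen is the t quantile times the SE, at 0.05 or at the p the adjustment would need for 1 more call. Alternatives used DESeq2 1.42.0 and limma 3.58.1. The second form of 2 promoter patterns was added after the first counts were seen. The procedure was tested on simulated data. The members and gene lists were chosen with earlier results of these data known. Named were all members, Il1b and Ffar1, the pathway genes past the threshold (at most 4 per list, otherwise the 2 of smallest unadjusted p under 0.05, of which the text gives some) and the genes most like 4 members.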

Additional observations from a re-analysis of the deposited data

How the results depend on the processing

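No member was called in 5 of the 6 comparisons within a tissue under any alternative run. In nigra, TUG469 against PBS had 0 members called, 1 by the DESeq2 Wald test (Il1r1, adjusted p = 0.0182) and 0 to 2 when 1 library was left out. Nigra against striatum had 7 members called and 6 to 8 with 1 library left out. By limma on log2(TPM + 1), Gsdmd and Casp8 were lost there and Txnip gained. Many small log2 fold changes changed sign when 1 library was left out, none of them with a call in either fit. The ranges of those values over the libraries left out in turn follow. In striatum, TUG469 against PBS gave Txnip from -0.211 to 0.207, Gsdmd from -0.0619 to 0.0877, Il18 from -0.0957 to 0.0637. In striatum, TUG469 against 6-OHDA gave Pycard from -0.111 to 0.136, Casp1 from -0.325 to 0.158, Gsdmd from -0.216 to 0.163, Nek7 from -0.141 to 0.0457, Il18 from -0.0693 to 0.157, Il1r1 from -0.0579 to 0.0748, Nlrp3 from -0.0388 to 0.178, Casp8 from -0.112 to 0.276. In striatum, 6-OHDA against PBS gave Nlrp3 from -0.0657 to 0.151, Il18 from -0.165 to 0.0587, Txnip from -0.00174 to 0.424, Gsdmd from -0.147 to 0.233, Casp8 from -0.113 to 0.275. In nigra, 6-OHDA against PBS gave Pycard from -0.179 to 0.444, Nek7 from -0.120 to 0.00845, Il1r1 from -0.503 to 0.0836, Il18 from -0.00423 to 0.0782. In nigra, TUG469 against PBS gave Casp8 from -0.0574 to 0.0497, Pycard from -0.0897 to 0.518, Casp1 from -0.263 to 0.0788, Nek7 from -0.0828 to 0.0457. In nigra, TUG469 against 6-OHDA gave Nek7 from -0.0236 to 0.0738, Gsdmd from -0.197 to 0.0361, Pycard from -0.0914 to 0.297, Nlrp3 from -0.0787 to 0.495. The difference between tissues in the 6-OHDA response gave Nek7 from -0.0574 to 0.113, Il1r1 from -0.128 to 0.457, Casp1 from -0.105 to 0.511, Il18 from -0.0123 to 0.206. The difference between tissues in the TUG469 response gave Pycard from -0.0868 to 0.2995, Il18 from -0.022 to 0.196, Gsdmd from -0.230 to 0.133, Casp8 from -0.00907 to 0.364, Txnip from -0.230 to 0.133, Nlrp3 from -0.177 to 0.396.

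Other settings gave further sign changes, with no call under them; Ikbkb, between tissues, was the only gene among these called before. With DESeq2 size factors, the log2 fold change turned for Txnip to 4.3e-05 (striatum, TUG469 against PBS). With upper quartile factors, the log2 fold change turned for Pycard to 0.0148 (striatum, TUG469 against 6-OHDA), Il18 to 0.00945, Txnip to 0.0218 (striatum, TUG469 against PBS). Without a filter, the log2 fold change turned for Pycard to 0.00538 (striatum, TUG469 against 6-OHDA), Txnip to 0.00887 (striatum, TUG469 against PBS). At a floor of 1 CPM in 3 libraries, the log2 fold change turned for Txnip to 0.00472 (striatum, TUG469 against PBS). By limma on log2(TPM + 1), the log2 fold change turned for Il18 to 0.031 (striatum, 6-OHDA against PBS), Pycard to 0.00744, Casp1 to 0.00109, Il1r1 to -0.00979 (striatum, TUG469 against 6-OHDA), Il18 to 0.0565, Txnip to 0.0955 (striatum, TUG469 against PBS), Il18 to -0.0189 (nigra, 6-OHDA against PBS), Casp8 to -0.0339 (nigra, TUG469 against PBS), Ikbkb to 0.0179 (nigra against striatum), Il18 to -0.0499, Nek7 to -0.0853, Il1r1 to -0.00499 (6-OHDA response, nigra against striatum), Gsdmd to -0.0603 (TUG469 response, nigra against striatum). By limma on log2(TPM + 0.1), the log2 fold change turned for Il18 to 0.0316 (striatum, 6-OHDA against PBS), Pycard to 0.0118, Casp1 to 0.0316, Il1r1 to -0.0161 (striatum, TUG469 against 6-OHDA), Il18 to 0.0578, Txnip to 0.102 (striatum, TUG469 against PBS), Il18 to -0.0194 (nigra, 6-OHDA against PBS), Casp8 to -0.0472 (nigra, TUG469 against PBS). With the length trend removed, the log2 fold change turned for Nlrp3 to -0.00678, Il18 to 0.0419 (striatum, 6-OHDA against PBS), Il18 to -0.0391 (striatum, TUG469 against 6-OHDA), Il18 to 0.00284 (striatum, TUG469 against PBS), Il18 to -0.0552 (nigra, 6-OHDA against PBS), Nek7 to 0.00312, Casp8 to -0.0245 (nigra, TUG469 against PBS), Il18 to -0.0862 (6-OHDA response, nigra against striatum). With the replicate block, the log2 fold change turned for Casp1 to 0.298, Il1r1 to -0.0818 (striatum, TUG469 against 6-OHDA), Il18 to -0.0138 (nigra, 6-OHDA against PBS), Gsdmd to -0.0105 (TUG469 response, nigra against striatum). Fitting only the groups compared, the log2 fold change turned for Txnip to 0.00642 (striatum, TUG469 against PBS).

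Counts over all genes moved: 364 for nigra TUG469 against PBS became 8 to 1560, 29 for the 6-OHDA interaction became 7 to 337, and the other counts within a tissue and the TUG469 interaction, at 0 or 1, reached at most 437. The cause was not tested. Replicate numbers were not taken to pair the samples, because the labels do not say that the same number means the same animal. Correlations of same-numbered deviations ran from -0.26 to 0.42 in striatum (3 of 6 pairs over 0.1) and from -0.17 to 0.24 in nigra (3 of 6). Between tissues, for the same group and number, all were above 0, from 0.0182 to 0.204 (5 of 9 pairs over 0.1). Whether 1 animal gave both tissues cannot be told, and the main fit treated the 18 libraries as separate. With the replicate block 0 members were called in each comparison within a tissue, 8 between tissues with Txnip added (0.26, adjusted p = 0.000776), and 13 genes in all for nigra TUG469 against PBS.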

Other observations

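Genes whose pattern over the 18 libraries was most like a member, after tissue means were taken off, are given as a description. For Pycard these were Tnfrsf19 (Pearson r 0.87, Spearman rho 0.87), Sall1 (0.83 and 0.83), which is also on the microglia list, and Mutyh (0.82 and 0.85), among 15125 genes. For Nlrp3 they were Stxbp4 (0.77 and 0.62), Cpe (0.77 and 0.69) and Chd3 (0.75 and 0.79). For Casp1 they were Gas1 (0.75 and 0.67), Gm3788 (0.73 and 0.85) and Fam205a3 (0.73 and 0.74), and for Il18 COX1 (0.81 and 0.85), Col9a3 (0.78 and 0.78) and E130114P18Rik (0.78 and 0.78). With the mean of all 18 microglia markers, Sall1 among them, Pearson r was 0.54 for Pycard and 0.28 for Nlrp3. It was -0.05 for Casp1 and 0.03 for Il18. Within striatum and nigra alone, 9 libraries each, r was 0.43 and 0.72 for Pycard and 0.66 and 0.17 for Nlrp3. For Casp1 it was 0.17 and -0.42, and for Il18 -0.30 and 0.67. The values near 0 over both tissues thus join opposite signs. The libraries share groups and depth, so no p is given.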
